A study of Homo sapiens with 4 samples.

Results

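Some genes gave rise to many circular RNAs (circRNAs). The count table listed 11760 circRNAs of 4410 host genes, and 119 of these hosts had 10 or more circRNAs each, 1510 in all. These 1510 circRNAs are described here. A host was chosen by the number of circRNAs listed for it, whether or not they had reads. At the edge of this choice, the 38 hosts with exactly 10 circRNAs had a median of 159.5 reads and a median of 45.4% of reads in their main circle, and the 56 hosts with 9, which were left out, had 206 reads and 47.8%.

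The libraries came from AGS, an established human gastric adenocarcinoma cell line. Cells were transfected with a plasmid that expresses FLAG-tagged DDX5 from a viral promoter (DDX5, 2 libraries) or with the FLAG-tagged empty vector (NC, 2 libraries), and in both groups rRNA was removed and linear RNA was digested with RNase R before sequencing. The comparison asks whether more DDX5, an RNA helicase with roles in splicing, changed the circRNAs of the cell. The paper calls the 2 libraries of a group biological replicates, but whether they came from separate cultures is not stated, so the spread between them may be technical. DDX5 itself had 0 listed circRNAs, so these circRNA data hold no check of its overexpression. Of 24 gastric and epithelial marker genes 8 were listed as circRNA hosts, and 7 of the 8 had reads. Of 12 stromal and immune marker genes 0 were listed. Listing as a circRNA host does not measure the expression of a gene, so these counts are no check of cell identity.

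A circRNA forms by back-splicing, in which a downstream splice donor is joined to an upstream splice acceptor and the exons between them close into a ring. One gene can give several circles when one acceptor is joined to different donors, when one donor is joined to different acceptors, or when separate stretches of exons circularize. Often a single circle of a gene is far more abundant than its others. Each circle was measured by the reads that cross its back-splice junction, a count that does not grow with the length of the circle, and levels are given as RPM, back-splice reads scaled to an equal total per library. Summed over all circRNAs, 78377 and 60178 such reads were counted for DDX5, and 73173 and 97961 for NC, and 1 read stood for 10.2 to 16.6 RPM. A count of 0 allows up to 3 reads, between 30.6 and 49.9 RPM, and these limits cover counting error only.

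The positions are those of the deposited table. They are not GRCh38 positions, although the sample labels name hg38, and so each circRNA was placed on the exons of its host by its span. Of the 1510 circRNAs, 1404 (93.0%) were placed, and 1393 of these lay on the reference transcript by which exons are counted here. The junctions below are printed to show how the circles of a host are built from few exon ends. Each is written 5′ to 3′ as the 15 bases at the end of the last exon followed by the 15 bases at the beginning of the first exon, taken from the GENCODE 29 transcripts by exon number.

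The first set shows an acceptor joined to several donors. NSD2, a histone methyltransferase gene on chromosome 4, had 7 circRNAs that begin at exon 4, more than any other acceptor among the 119 hosts. Capitals mark the shared beginning of exon 4 at position chr4:1902353.
NSD2 exons 4 to 5: ataccaaacttaaagTGTTCTAAGAACGGA
NSD2 exons 4 to 9: cacagtcttcggaagTGTTCTAAGAACGGA
NSD2 exons 4 to 8: ctgaagaagactctgTGTTCTAAGAACGGA
NSD2 exons 4 to 7: aaacacagggatgagTGTTCTAAGAACGGA

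The second set shows a donor joined to several acceptors. BANP, which encodes a DNA-binding protein of the nucleus, lies on chromosome 16 and had 5 circRNAs that end with exon 11. Capitals mark the shared end of exon 11 at position chr16:88071617.
BANP exons 8 to 11: GGGCAGGACGGTCAGgtcaccttttctata
BANP exons 7 to 11: GGGCAGGACGGTCAGaggactaccccaatg
BANP exons 9 to 11: GGGCAGGACGGTCAGagccgatgatgagca
BANP exons 5 to 11: GGGCAGGACGGTCAGcgtcgtcccccagac

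The third set shows 2 acceptors and 2 donors in all 4 combinations. UBA2, on chromosome 19, encodes a subunit of the enzyme that activates SUMO. Capitals mark the beginning of the first exon, which is exon 2 or exon 3.
UBA2 exons 2 to 5: actactatcaaaaagATTGATCTGGATACT
UBA2 exons 2 to 6: aaagtacttgttcaaATTGATCTGGATACT
UBA2 exons 3 to 5: actactatcaaaaagGTTGCCAAGGAAAGT
UBA2 exons 3 to 6: aaagtacttgttcaaGTTGCCAAGGAAAGT

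The last set shows pairs of circles that share a donor and that lead their host or stood apart in a library. ASH1L, a histone methyltransferase gene on chromosome 1, and KDM4C, a histone demethylase gene on chromosome 9, each had a main circle and a longer one with the same end. Capitals mark the shared end of exon 5 in ASH1L and of exon 8 in KDM4C.
ASH1L exon 5: AGAGAATAATAAAAGtaaacggagttccct
ASH1L exons 4 to 5: AGAGAATAATAAAAGgctcccagccaacct
KDM4C exons 6 to 8: AAAGTTGCCAAATTGgtatgctatacctcc
KDM4C exons 5 to 8: AAAGTTGCCAAATTGggtgtggatgaatgg

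Hosts with many circRNAs were long genes with many exons. They had a median of 26 exons and 147.7 kb, against 13 exons and 60.6 kb in the other hosts. Their circRNAs were thinly covered. Of the 1510 circRNAs, 998 (66.1%) had a read in any library and 512 had none, while 64.3% of the circRNAs of other hosts had one. Only 148 of the 998 (14.8%) were found in all 4 libraries and 530 (53.1%) were found in 1 library, against 13.1% and 55.7% of the other circRNAs with reads.

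Replicates often disagreed on whether a circle was present. With 10 or more reads in one library, a circle of these hosts had 0 reads in its partner library in 398 of 1200 cases (33.2%), against 36.04% for the other hosts. The same was seen for circles with more reads. Of the 101 circles with at least 20 reads in 3 libraries, 18 (17.8%) had 0 reads in the remaining one, 3 and 7 of them in the DDX5 libraries and 4 and 4 in the NC libraries. For the other hosts this share was 20.03%.

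Together the 119 hosts gave 41570 of 309689 reads (13.4%). The DDX5 libraries gave them 13.34% and 12.98% of all reads and the NC libraries 13.03% and 14.05%. The groups overlapped. In bulk RNA, more copies per cell and more cells with a circle cannot be told apart. The difference of -0.38 percentage points had p = 0.667 in a two-sided exact permutation test over the libraries, in which 2 against 2 cannot go below 0.33.

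The main circle of a host, the one with the highest mean RPM over the 4 libraries, held a median of 41.7% of its reads. In 42 hosts it held more than 50% and in 14 it held less than 25%. The effective number of circles had a median of 3.44 and lay between 1.03 and 14.4. It is the number of equally used circles that would give the same sum of squared shares, with reads pooled over the 4 libraries. Beside this, the median over hosts was 11 for circRNAs listed and 8 for circRNAs with reads.

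**Figure D1:**
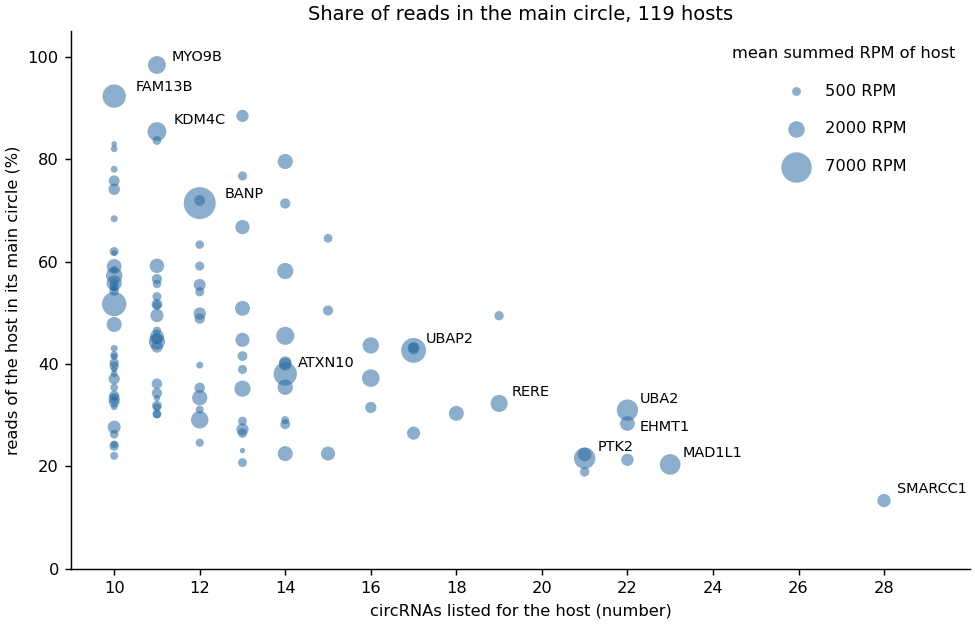
Each point is 1 of the 119 hosts, with the number of its listed circRNAs on the x axis and the percent of its reads in the main circle, pooled over the 4 libraries, on the y axis, and the area of a point grows with the mean summed RPM. The hosts with 20 or more circRNAs all lie under 32%, while the other hosts spread from 20.7% to 98.4%.

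At one end were hosts in which a single circle held most reads. MYO9B, a myosin gene singled out here after its values were seen, had the highest share. Its single-exon circle of exon 2 (898 bases) had 129 and 204 reads in DDX5 and 161 and 189 in NC, which was 92.1% and 100% of its reads for DDX5 and 100% in both NC libraries. FAM13B, one of the 10 hosts with the highest summed RPM, came close to it. Its circle of exons 8 to 10 (331 bases, chr5:137320946-137324004) had 278 and 287 reads for DDX5 and 274 and 305 for NC, or 89.4% and 100% against 92.9% and 88.2% of the host. The remaining reads of FAM13B came from 4 circles.

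BANP had the highest summed level of all 119 hosts, 7483 ± 1308 RPM in DDX5 and 7992 ± 216 RPM in NC (SD, n = 2 each). Its circle of exons 8 to 11 (407 bases, chr16:88061089-88071617) had 422 and 310 reads in DDX5 and 421 and 550 in NC. It made up 82.1% and 61.3% of BANP reads in DDX5 and 70.6% and 71.6% in NC, so that the spread within DDX5 was wider than the gap between groups. A circle of exons 2 to 4, which lies apart from it, had 81 and 81 reads in DDX5 and 89 and 134 in NC. The other circles with the same donor were weaker and less regular. The one of exons 7 to 11 had 0 and 42 reads in DDX5 and 29 and 80 in NC, and the one of exons 9 to 11 had 0 and 23 against 49 and 0.

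Reads were less concentrated in other hosts of high level. UBAP2, which encodes a ubiquitin-associated protein, had a circle of exons 7 to 8 (159 bases, chr9:33971649-33973235) with 131 and 138 reads in DDX5 and 181 and 156 in NC. Beside it, a circle of exons 9 to 12 (377 bases, chr9:33953283-33963789) had 214 and 91 reads in DDX5 and 114 and 146 in NC. The second led in DDX5 replicate 1 and the first led in the other 3 libraries. A circle that spans both, exons 7 to 12, had only 19 and 0 reads in DDX5 and 16 and 31 in NC. UBAP2 reached 4816 ± 371 RPM in DDX5 and 4452 ± 739 RPM in NC (SD, n = 2 each).

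PCSK5, a proprotein convertase gene, used an acceptor at exon 6 for 4 of its circles with reads. The circle of exons 6 to 7 (262 bases, chr9:78682871-78686814) had 191 and 129 reads in DDX5 and 197 and 207 in NC. Exons 6 to 9 gave a circle with 104 and 43 against 56 and 163, and exons 6 to 8 gave one with 81 and 0 against 59 and 78. This last circle was thus missing from DDX5 replicate 2 alone, in which the main circle made up 71.3% of PCSK5 reads, against 46.9% in the other DDX5 library and 57.3% and 44.2% in NC.

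XPO1, the gene of a nuclear export receptor, had a similar gap. Its main circle of exons 3 to 5 (307 bases, chr2:61749746-61761038) had 99 and 58 reads in DDX5 and 99 and 88 in NC. Sharing its donor, the circle of exons 4 to 5 had 66 and 0 reads in DDX5 and 80 and 48 in NC. The third circle, of exons 18 to 21, lies apart and had 38 and 14 reads in DDX5 and 23 and 26 in NC.

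ATXN10, which encodes ataxin-10, spread its reads over several circles. Its main circle of exons 7 to 9 (445 bases, chr22:46125305-46136418) had 152 and 70 reads in DDX5 and 107 and 155 in NC. The circles of exons 2 to 6 and 2 to 5 followed, with 46 and 61 against 64 and 92 reads, and with 25 and 62 against 71 and 48. A wide circle of exons 2 to 9 had 52 and 19 reads in DDX5 and 17 and 48 in NC. In each of these 4 circles the RPM of the groups overlapped. The summed level was 4095 ± 127 RPM in DDX5 and 4077 ± 297 RPM in NC (SD, n = 2 each).

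The 4 UBA2 circles printed above were the best covered of this host. Exons 2 to 5 (321 bases, chr19:34921481-34925873) had 91 and 84 reads in DDX5 and 70 and 72 in NC. Exons 2 to 6 had 54 and 54 against 43 and 32, exons 3 to 6 had 25 and 44 against 43 and 26, and exons 3 to 5 had 29 and 23 against 27 and 30. Exons 2 to 5 led in all 4 libraries, and all 4 circles were found in every library. UBA2 listed 22 circRNAs on 9 acceptors and 9 donors.

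At the other end, SMARCC1, which encodes a core subunit of the BAF chromatin remodeling complex, listed 28 circRNAs, the most of any host, and 23 of them had reads. Its main circle of exons 3 to 5 (261 bases, chr3:47777524-47787483) held 13.3% of SMARCC1 reads, with 21 and 0 reads in DDX5 and 7 and 25 in NC. Only 1 SMARCC1 circle, of exons 12 to 14, was found in all 4 libraries, with 9 and 15 reads in DDX5 and 12 and 7 in NC. MAD1L1, a spindle checkpoint gene, listed 23 circRNAs on 11 acceptors and 11 donors, and 6 of them were found in every library. Its main circle (chr7:2269619-2270362) had 56 and 33 reads in DDX5 and 44 and 64 in NC.

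The remaining hosts with the most circRNAs had the same flat pattern. PTK2, the gene of focal adhesion kinase, gave 21.6% of its reads to the circle of exons 3 to 5 and 20.4% to that of exons 3 to 7, with 63 and 32 reads in DDX5 and 57 and 82 in NC for the first. EHMT1, a histone methyltransferase gene, gave 28.4% to exons 7 to 9 and 25.99% to exons 19 to 25. The drug efflux pump genes ABCC4 and ABCC1 gave 21.3% and 22.3% to their main circles, of exons 10 to 20 and of exons 11 to 12. In ABCC4 the circle of exons 10 to 13 had slightly more reads in all (21.9%) but a lower mean RPM. NUP98, a nuclear pore gene, had a main circle of exons 11 to 13 with 0 and 15 reads in DDX5 and 0 and 20 in NC, and no circle of it was found in all 4 libraries. The corepressor gene RERE gave 32.3% to a circle of exons 5 to 8.

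The 14 hosts among 85 listed chromatin and transcription regulators lay between SMARCC1 (13.3%) and KDM4C (85.4%), with NSD2 at 22.5%, with a median of 42.5%, close to the 41.7% of all 119 hosts. For hosts of the other function lists the medians lay between 38.9% (8 DNA replication, repair and cell cycle hosts) and 58.7% (6 cytoskeleton, motor and centrosome hosts, MYO9B among them). It was 39.8% in 21 membrane transport, trafficking and GTPase hosts, 46.1% in 8 ubiquitin ligase and deubiquitinase hosts and 56.9% in 6 RNA processing, decay and translation hosts. A further 56 hosts were in no list.

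Circles of these hosts shared their ends. Of the 1510 circRNAs, 82.1% had an acceptor or a donor in common with another circRNA of the host, 58.2% shared the acceptor, 57.6% the donor and 33.7% both, the acceptor with one circRNA and the donor with another. In hosts with 2 to 9 circRNAs these shares were 63.9%, 40.4%, 35.8% and 12.3%. A host with more circRNAs offers more partners to share with, so the shares are given as a description without a test. The 1510 circRNAs used 973 acceptors and 991 donors, or 1.55 circRNAs per acceptor and 1.52 per donor. Most positions were still used once, 631 of the acceptors and 640 of the donors, while 51 acceptors and 35 donors were used by 4 or more circRNAs. Of the circRNAs with reads alone, 73.0% shared an end with another one with reads.

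After exon 4 of NSD2, the most used acceptors were 5 with 6 circRNAs each. They were exon 3 of PTK2, exon 2 of MIB1, a Notch pathway ubiquitin ligase gene, exon 5 of both RERE and TASP1, a protease gene, and an acceptor of TBC1D4. The most used donor was exon 16 of UBA2 with 6 circRNAs. A further 12 donors had 5 each, and the 4 of them with the most reads were exon 11 of BANP, exon 9 of ATXN10, exon 12 of UBAP2 and exon 12 of AMBRA1, an autophagy gene.

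A position used by many circRNAs did not always carry many reads. The BANP donor at exon 11 carried 81.1% of BANP reads, the AMBRA1 donor 86.3% and the MIB1 acceptor 84.8%. The UBA2 donor at exon 16 carried 16.5% of UBA2 reads with 6 circRNAs, and the TASP1 acceptor at exon 5 carried 40.5%. The NSD2 acceptor at exon 4 carried 64.8%. Of its 7 circles, exons 4 to 5 had 22 and 29 reads in DDX5 and 20 and 47 in NC, exons 4 to 9 had 28 and 19 against 8 and 44, and exons 4 to 8 had 28 and 0 against 19 and 54. Exons 4 to 13 were listed as a circle that had 0 reads in all libraries.

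In MIB1 nearly all reads of the shared acceptor came from 1 circle. Its circle of exons 2 to 6 (679 bases, chr18:19345733-19359646) had 103 and 94 reads in DDX5 and 86 and 110 in NC. Each of the other circles of MIB1 that begin at exon 2 had no more than 8 reads in any library. In AMBRA1 the donor at exon 12 was used by 2 well-covered circles, of exons 10 to 12 with 96 and 44 reads in DDX5 and 71 and 87 in NC, and of exons 9 to 12 with 54 and 0 in DDX5 and 43 and 64 in NC.

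**Figure D2:**
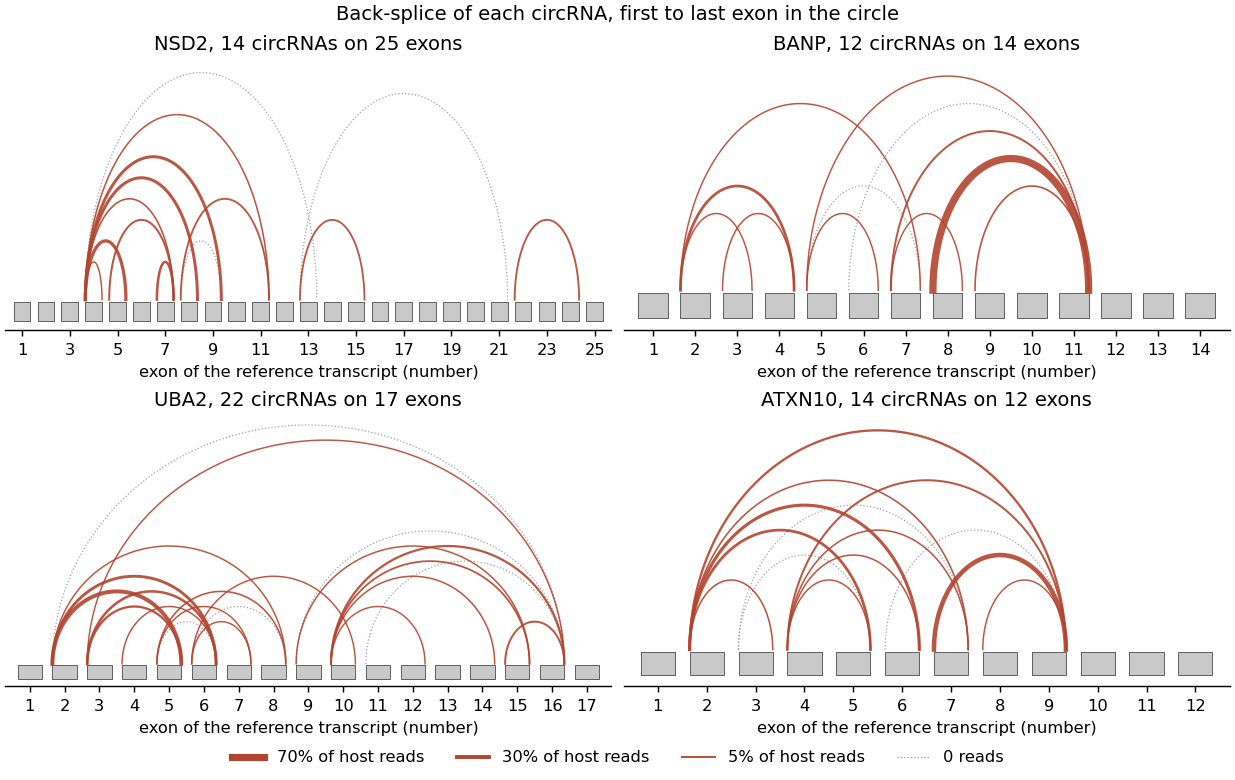
Each arc is a circRNA of NSD2, BANP, UBA2 or ATXN10 and runs from the first to the last exon in the circle along the numbered exons of the reference transcript (x axis, introns not drawn). Line width grows with the percent of the host's reads, dotted arcs had 0 reads, and the fans at exon 4 of NSD2 (7 circRNAs), exon 11 of BANP (5) and exon 9 of ATXN10 (5) are the shared positions.

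Most other circles of a host did not touch its main circle. Of 879 further circRNAs with reads, 587 (66.8%) did not overlap the main circle, 141 (16.0%) contained it and 72 (8.19%) lay inside it. The same acceptor as the main circle was used by 12.9% and the same donor by 8.08%. Main circles and other circles with reads both had a median of 3 exons, with median spliced lengths of 369 and 427 bases. The main circle was found in all 4 libraries in 73 of 119 hosts, while 8.53% of the other circles were and 60.1% of them were found in a single library. The main circle was chosen by its mean RPM over these same libraries, so its wider detection follows in part from the choice.

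Circles that begin at exon 2 made up 154 of the 1393 (11.1%) in these hosts, against 23.3% in the others. They carried 18.5% of the reads placed on exons, against 29.4% in the other hosts. None of the 1393 began at exon 1 or ended with the last exon. Single-exon circles were 3.88% of the 1393, against 6.81% in the other hosts. Coding sequence alone made up 1187 of the 1393 circRNAs.

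The shift in use between DDX5 and NC was examined in the 75 hosts with at least 20 reads in every library. The median share of the main circle over these hosts was 41.5% and 47.0% in the DDX5 libraries and 45.3% and 37.8% in the NC libraries. The difference of 2.70 percentage points had p = 0.667 in the two-sided exact permutation test over the libraries, and without NC replicate 2 it was -0.57. The order of the shares was that of the depths turned round, with 47.0% in the library of 60178 reads, 45.3% in that of 73173, 41.5% in that of 78377 and 37.8% in that of 97961, and the part of depth in the shares was not tested. A median of 4 circles per host was found in each DDX5 library and of 5 in each NC library.

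The circle with most reads was the same in all 4 libraries in 26 of the 75 hosts (34.7%). The DDX5 replicates had the same leading circle in 41 hosts and the NC replicates in 44, while a DDX5 and an NC library had the same one in 40 to 47 hosts. The counts for libraries of one group lay within the range of those for libraries of different groups. Both groups had a leading circle common to their replicates in 27 hosts, which was a different one in DDX5 and NC in 1 host, ASH1L.

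In ASH1L the circle of exons 4 to 5 (844 bases, chr1:155408118-155429689) led in both DDX5 libraries with 35 and 33 reads, against 21 and 45 in NC. The circle of exon 5 alone (742 bases, chr1:155408118-155408859) led in both NC libraries and had 26 and 27 reads in DDX5 and 34 and 58 in NC. The share of the exon 5 circle was 30.2% and 38.6% in DDX5 and 38.2% and 49.2% in NC, so the groups overlapped. The test of isoform use, edgeR's F test of whether the circles of a host changed by different amounts, gave an unadjusted p = 0.339 for ASH1L.

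The difference in use of circles between replicates was of the same size as that between groups. The difference between 2 libraries was taken as the percent of a host's reads that would have to move to another circle for the libraries to match. Its median over the 75 hosts was 37.4% between the DDX5 replicates and 35.5% between the NC replicates, and between 35.98% and 37.9% for the 4 pairs of a DDX5 and an NC library. The mean difference between groups was larger than the mean difference within groups in 28 hosts and was not in 47. In the 16 hosts with at least 100 reads in every library, the medians were 25.3% within DDX5, 23.8% within NC and 19.8% to 24.4% between groups.

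**Figure D3:**
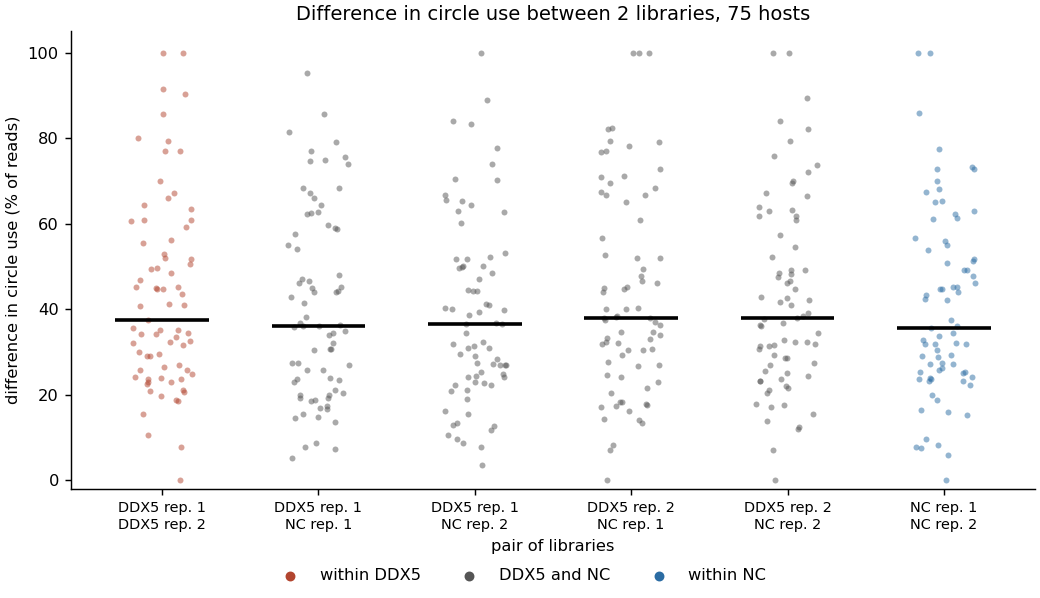
Each point is 1 of 75 hosts and the y axis gives the percent of its reads that would have to move between circles for the 2 libraries named on the x axis to match, with medians as black lines. The medians of the 6 pairs lie between 35.5% and 37.9%, within and between the groups alike.

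Over the whole table, isoform use was tested in 1067 hosts with 2 or more circRNAs of at least 10 reads, 112 of them among the 119. At an adjusted p under 0.05 the test called 0 hosts (background 0%), and at an unadjusted p under 0.05 it called 1 of the 112, against a background of 3.37%. The F test of limma's diffSplice gave 9 of the 112 (8.04%) at an unadjusted p under 0.05, close to its background of 7.69%, and 0 after adjustment. The smallest adjusted p of edgeR's test among the 112 was 0.668. Hosts among the 10 with the smallest p follow as values.

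In NPHP4, DDX21, ZC3H18 and INO80 a circle was found mainly or only in both libraries of a group. NPHP4, the gene of a protein at the base of the cilium, had 16 and 20 reads of the circle of exons 2 to 6 in DDX5 and 5 and 7 in NC, and 0 and 0 against 7 and 23 reads of the circle of exons 2 to 9 (edgeR F test across all hosts, unadjusted p = 0.0514). The main circle of NPHP4 made up 59.3% and 100% of the host in DDX5 and 20.8% and 15.9% in NC, the widest gap between groups among the 75 hosts. DDX21, a nucleolar RNA helicase gene, had 27 and 34 reads of its exon 2 circle in DDX5 and 12 and 21 in NC, and 0 and 0 against 16 and 10 of exons 4 to 6. ZC3H18, the gene of a zinc finger protein of nuclear RNA decay, had 21 and 25 reads of exons 8 to 9 in DDX5 and 0 and 2 in NC, and 9 and 17 against 16 and 24 reads of exon 9. INO80, the gene of a chromatin remodeling ATPase, had 12 and 15 reads of exons 2 to 4 in DDX5 and 0 and 0 in NC.

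UBR2, ACACA, BRWD1, SERINC5 and HSPG2 were also among the 10. UBR2, a ubiquitin ligase gene, had 41 and 0 reads of exons 3 to 4 in DDX5 and 0 and 68 in NC, so that each group had a library without it. BRWD1, a bromodomain gene, had 31 and 19 reads of exons 26 to 27 in DDX5 and 21 and 31 in NC, and 26 reads of exons 30 to 31 in NC replicate 1 alone. The circle of exons 26 to 27 made up 100% and 100% of BRWD1 reads in DDX5 and 44.7% and 50.8% in NC. HSPG2, which encodes the matrix proteoglycan perlecan, had 28 and 16 reads of exons 38 to 39 in DDX5 and 14 and 13 in NC. SERINC5, a membrane protein gene, had only 9 and 18 reads in DDX5 replicate 2 and NC replicate 1. The acetyl-CoA carboxylase gene ACACA had 2 reads in NC replicate 1.

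**Figure D4:**
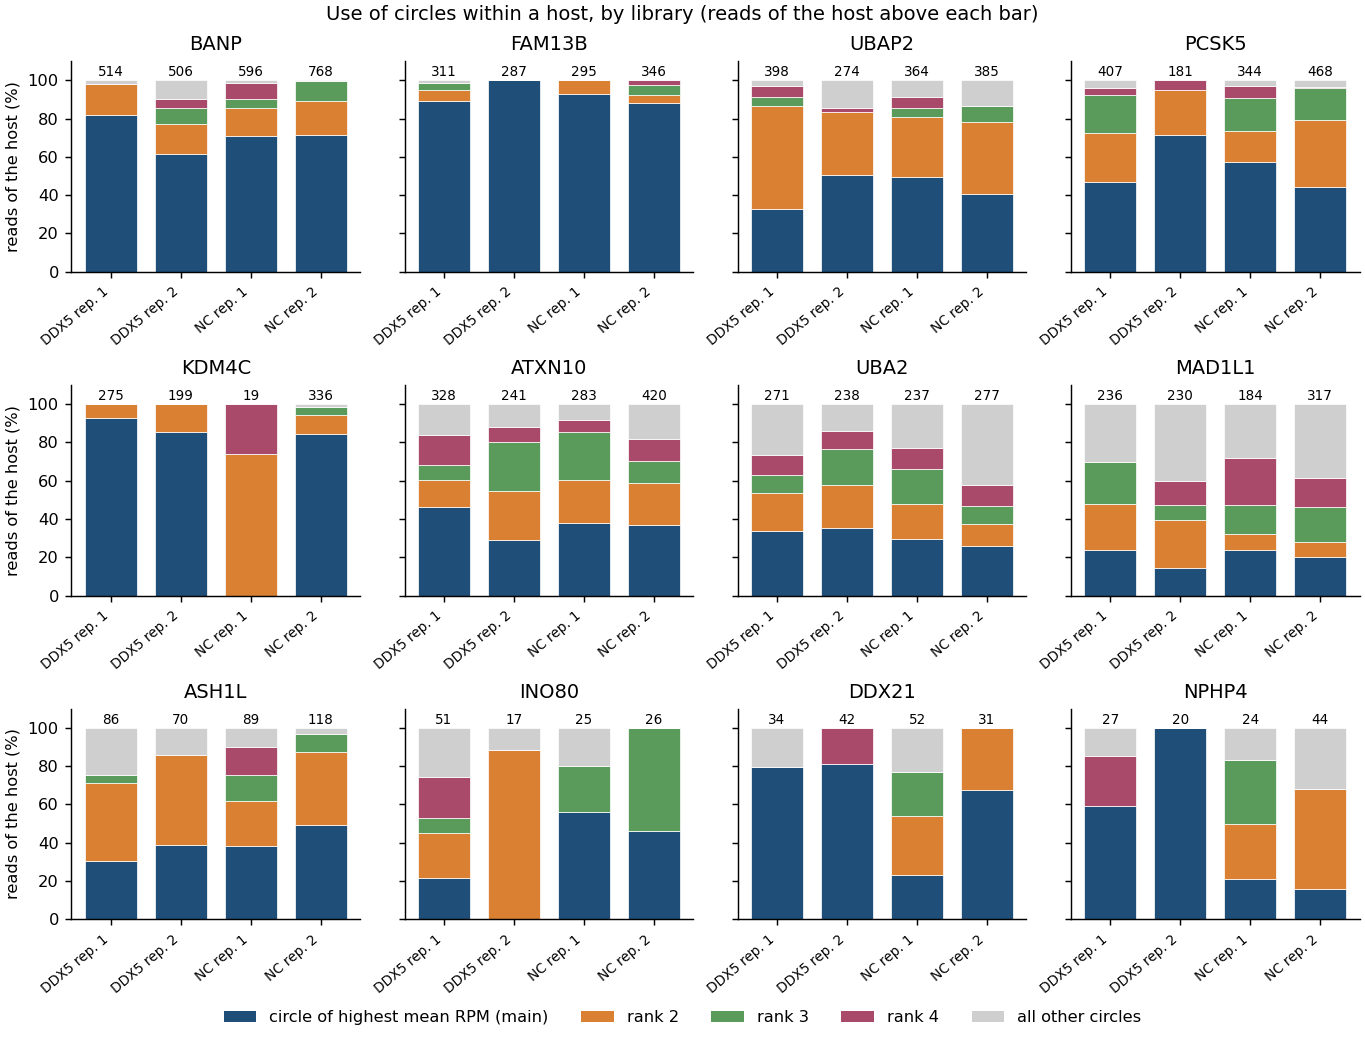
Stacked bars give, for 12 named hosts, the percent of a host's reads (y axis) in its main circle, in the circles ranked 2 to 4 by mean RPM and in all others, in the DDX5 and NC libraries (x axis), with the reads of the host above each bar. FAM13B keeps its main circle between 88.2% and 100%, KDM4C lacks it in NC replicate 1, and ASH1L and NPHP4 are the hosts in which the leading circle differed or the gap was widest.

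The main share of 24 of the 75 hosts (32.0%) did not overlap between the groups, 13 higher and 11 lower in DDX5, against a background of 29.4% of the 442 hosts with 2 or more circRNAs and as many reads. In 7 of the 24 the main circle had 0 reads in a library. The main circle of CDC42BPB, a kinase gene, had 99 and 79 reads in DDX5 and 89 and 0 in NC. That of AGAP1 had 56 and 59 reads in DDX5 and 0 and 96 in NC. That of APP, the gene of the amyloid precursor protein, had 30 and 31 reads in DDX5 and 0 and 44 in NC. These 3 hosts were chosen after their values were seen.

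Tested 1 by 1, no circle of these hosts changed between DDX5 and NC at the adjusted threshold. Of the 614 circles with at least 10 reads in all, 0 had an adjusted p under 0.05 in edgeR's quasi-likelihood test, against 4 of 4671 in the whole table (background 0.0856%), and the smallest adjusted p was 0.951. At an unadjusted p under 0.05 there were 13 (7 higher and 6 lower in DDX5), 2.12% against a background of 2.65%. DESeq2 gave 22 (3.58%) at an unadjusted p under 0.05, close to its background of 3.55%, and 0 after adjustment (background 0.0428%). The RPM of the groups did not overlap in 139 of the 614 circles (22.6%), against a background of 23.3%. The median log2 fold change of the 614 was -0.27, beside -0.26 for all circRNAs tested, and 209 of the 614 had 0 reads in both libraries of a group.

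The smallest p of edgeR's test belonged to the main circle of KDM4C, exons 6 to 8 (292 bases, chr9:6880012-6893232). It had 255 and 170 reads in DDX5 and 0 and 283 in NC, with an edgeR log2 fold change of 0.94 (unadjusted p = 0.00296, adjusted p = 0.951). This small p depended on the setting. DESeq2 gave it an unadjusted p of 0.754 (log2 fold change 0.98). EdgeR's test on circles with at least 20 reads gave 0.633 (log2 fold change 0.96). In RPM it had 3254 and 2825 in DDX5 and 0 and 2889 in NC, so that an NC library with the circle lay between the DDX5 libraries. Leaving out NC replicate 1 gave a log2 fold change of -0.066, and leaving out NC replicate 2 gave 10.7 and passed the adjusted threshold. The circle of exons 5 to 8, with the same donor, was found in all libraries, with 20 and 29 reads in DDX5 and 14 and 33 in NC.

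Circles among the 10 with the smallest p of those without overlap follow, and the ZC3H18 circle of exons 8 to 9 given above was one of them. The MAD1L1 circle of exons 6 to 10 (515 bases, chr7:2252847-2259091) was the only one of the 10 with reads in every library. It had 57 and 58 reads in DDX5 and 15 and 25 in NC, or 845.5 ± 167 RPM against 230.1 ± 35.5 RPM (SD, n = 2 each), with an edgeR log2 fold change of 1.75 ± 0.84 (SE, unadjusted p = 0.0379, adjusted p = 0.951). The MAD1L1 circle of exons 5 to 10, which shares its donor, had 51 and 18 reads in DDX5 and 28 and 57 in NC.

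Apart from MAD1L1 and ZC3H18, these circles had 0 reads in both libraries of a group. The ACACA main circle (chr17:35604935-35609962) had 26 and 10 reads in DDX5 and 0 and 0 in NC, at least 14.8-fold higher over the floor of 3 reads in a group. The UBAP2 circle of exons 10 to 12 had 10 and 19 reads in DDX5 and 0 and 0 in NC, at least 11.9-fold higher. Those with 0 reads in DDX5 were a PTK2 circle of exons 3 to 4, with 11 and 34 reads in NC, a UBR2 circle of exons 5 to 7 with 13 and 28, an HSPG2 circle with 17 and 21, a UBE3C circle of exons 16 to 17 with 17 and 20 and an APP circle with 17 and 18. They were at least 12.1-fold, 11.1-fold, 10.3-fold, 9.98-fold and 9.45-fold lower in DDX5, in this order. All 10 had an adjusted p of 0.951 in edgeR's test, and between replicates a count of 0 beside 10 or more reads was found in 33.2% of cases. The fold limits given here allow for counting error of the group at 0 only. They do not cover counting error of the group with reads or this disagreement between replicates.

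**Figure D5:**
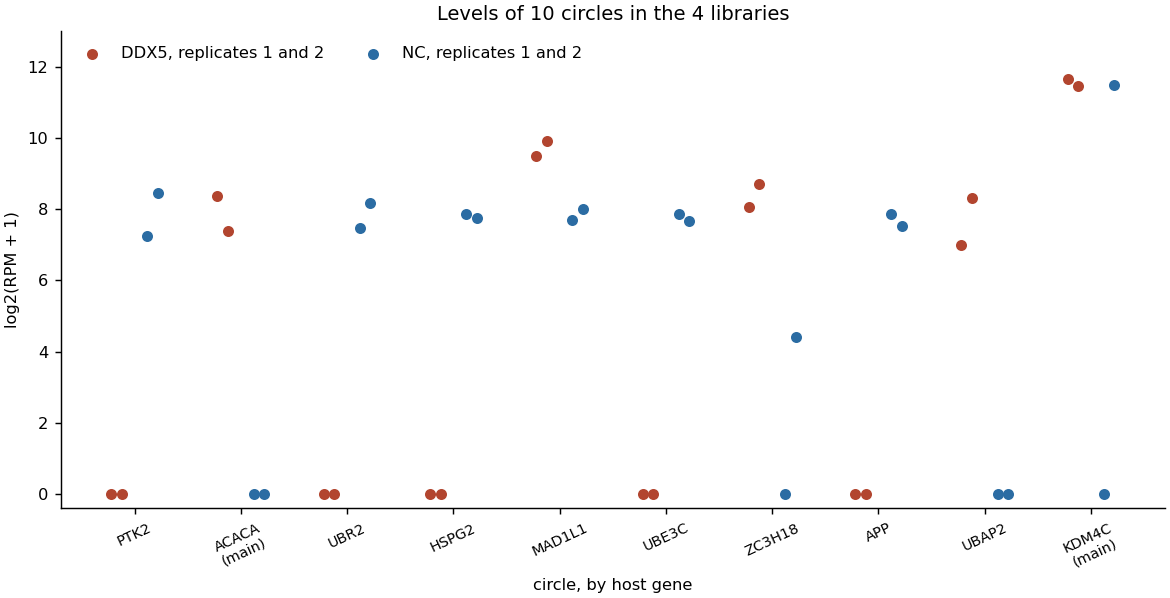
Points give log2(RPM + 1) on the y axis for 9 of the 10 circles with the smallest p among those without overlap, ordered by p, and for the KDM4C main circle, in DDX5 (left of each pair) and NC libraries, 2 points per group. In 7 of these 9 a whole group lies at 0, the MAD1L1 circle has reads in all 4 libraries, and the KDM4C circle has 0 reads in NC replicate 1 alone.

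When all circles of a host were summed, no host changed at the adjusted threshold. Of the 119 hosts, 0 had an adjusted p under 0.05 in edgeR's test (background 0%), and 3 had an unadjusted p under 0.05 (background 2.52%), against 5 (4.20%) with DESeq2 (background 4.88%), which also called 0 after adjustment (background 0.037%). The log2 fold changes lay between -1.81 and 1.78 with a median of -0.15, beside -0.13 for all hosts tested. ZC3H18 was higher, with 80 and 42 reads in DDX5 and 16 and 26 in NC (log2 fold change 1.78, unadjusted p = 0.0237, adjusted p = 0.999). MYBL2, a cell cycle transcription factor gene, had 130 and 69 reads in DDX5 and 201 and 225 in NC (log2 fold change -0.88, unadjusted p = 0.0255). AARS, the gene of the alanine tRNA ligase, had 24 and 15 reads in DDX5 and 47 and 106 in NC (log2 fold change -1.67, unadjusted p = 0.0282). The last 2 were named for their p-values after these were seen.

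The main circle of MYBL2, of exons 8 to 9, had 67 and 50 reads in DDX5 and 118 and 123 in NC, and the circle of exon 8 alone, with the same acceptor, had 41 and 0 against 47 and 59. By function list, the summed level was higher in DDX5 in 3 and lower in 11 of the 14 chromatin and transcription hosts, with a median log2 fold change of -0.15, and higher in 7 and lower in 14 of the 21 membrane transport, trafficking and GTPase hosts, with a median of -0.25. For ubiquitin hosts these counts were 2 and 6 (median -0.37), and for cytoskeleton hosts 2 and 4 (-0.17). The remaining lists leaned the other way. DNA replication, repair and cell cycle hosts had 5 higher and 3 lower (0.097). RNA processing, decay and translation hosts had 4 higher and 2 lower (0.055). Of the 119 hosts, 49 had a higher and 70 a lower sum in DDX5. None of the hosts in the 6 lists had an unadjusted p under 0.05 in the test of summed reads.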

How the data were processed

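The authors deposited raw counts, the reads crossing the junction of each circRNA. The authors deposited RPM too, which equal the counts scaled to an equal library total to within 0.00499 RPM. CIRCexplorer2 and CIRI2 are named in the study's text and BWA and hg38 in the submitters' processing notes. Their versions are not given in the sources read here. The smallest count above 0 is 2, so weak junctions may have been removed. The 4 libraries were grouped by their labels. Counts were tested with edgeR 4.0.16 (R 4.3.3, TMM, quasi-likelihood test, Benjamini-Hochberg adjustment over the whole table) for circRNAs and for host sums with at least 10 reads. Isoform use was tested with edgeR's diffSpliceDGE and the same adjustment, on the earlier (legacy) form of the quasi-likelihood fit. Scripts were tested on simulated counts with large changes and a fixed spread between replicates. The simulation did not model the disagreement of replicates on the presence of a circle, so it does not show what the tests could detect here. Alternatives were DESeq2 1.42.0, limma 3.58.1 diffSplice, other scalings and filters, a replicate block and each library left out in turn. Shares of reads used hosts with at least 20 reads in every library.

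The members, gene lists and tests were chosen with earlier results of these data known. Hosts were named as the 10 with most circRNAs, with the highest summed RPM and with the smallest isoform use p, and the one with leading circles that differ between groups. Circles were named as the 10 smallest p without overlap and the main circles of named hosts, and positions as the 5 most used acceptors and donors, with ties taken in the order of their reads. Some genes that these rules name are not reported here. Exons are those of GENCODE 29, matched by span where exactly 1 place was found and at least 3 circRNAs of the host gave the same offset. Python 3.11.15, pandas 2.3.3 and scipy 1.17.1 were used.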

Additional observations from a re-analysis of the deposited data

How the results depend on the processing

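The absence of calls at the adjusted threshold held for circles, host sums and isoform use under other scalings (RLE size factors, library totals), no filter, at least 20 reads, DESeq2, limma diffSplice and Simes-adjusted p, and without either DDX5 library. Leaving out libraries moved the calls of circles between 0 and 2, with 2 without NC replicate 1 (main circles of PCCA and CDC42BPB) and 2 without NC replicate 2 (main circles of AGAP1 and KDM4C), and those of host sums between 0 and 1 (HECTD4 without NC replicate 1, KDM4C without NC replicate 2). Over all circRNAs and hosts tested, 0.808% and 0.514% of circles and 0.485% and 0.171% of host sums passed without NC replicates 1 and 2. Each had 0 or few reads in 1 NC library. Isoform use stayed at 0. Whether libraries with the same replicate number belong together is not stated. The correlation of replicate deviations was 0.0054, which cannot decide it, since replicates often disagreed on whether a circle was present. With a replicate block 1 circle passed (0.163%, background 0.278%), the KDM4C main circle (log2 fold change 3.47), and the block changed no other call.

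At an unadjusted p under 0.05, circles numbered 6 with at least 20 reads (1.44%, background 2.01%), 22 with DESeq2 (3.58%, background 3.55%), and without a library from 7 without NC replicate 1 (1.25%, background 3.36%) to 24 without DDX5 replicate 1 (4.44%, background 4.36%), beside 13. Host sums numbered 5 without a filter (4.20%, background 2.52%) and with DESeq2 (background 4.88%), 7 with the replicate block (5.88%, background 2.37%), and 4 without DDX5 replicate 2 (3.36%, background 3.39%) to 10 without DDX5 replicate 1 (8.40%, background 5.87%), beside 3. Hosts in the isoform test numbered 2 with at least 20 reads (2.06%, background 4.54%), 0 with the replicate block (background 1.5%) and with Simes (background 0.656%), 9 with limma diffSplice (8.04%, background 7.69%), and 2 without DDX5 replicate 2 (1.85%, background 3.34%) to 7 without NC replicate 2 (6.73%, background 5.10%), beside 1. The difference in median main share lay between -0.57 (without NC replicate 2) and 7.53 percentage points without a library. The difference in the share of all reads lay between -0.89 and 0.13 (without NC replicate 2). Sharing of an end was 73.0% among circRNAs with reads. The KDM4C main circle lay between -0.066 (without NC replicate 1, reversed) and 10.7 (without NC replicate 2). Causes were not tested. Few reads per circle limit all shares.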
